A study of Mus musculus with 5 samples.

Results

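The azurophil-granule cells of this series were 142 of 36720 filtered cells, and they were chosen by their own transcripts: a cell belonged if Elane, Mpo and Prtn3 together gave at least 10 unique molecular identifiers (UMIs, 1 per captured transcript). The study sorted live CD11b+ Ly6G+ cells from unperturbed specific-pathogen-free C57BL/6 mice, of 20 months and of 10 weeks (8 weeks in the design text), from lung, liver, spleen, intestine, blood and bone marrow. Cells of several tissues and both ages were tagged, mixed and run on 2 cartridges of the BD Rhapsody, a microwell system for single-cell RNA, which gave the pools YO1 and YO2. The barcodes used here carry the pool name and no tissue or age, so no value below is assigned to either. All 142 members were in YO1, and none of the 17215 filtered cells of YO2 was one.

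Neutrophils are made in the bone marrow, and their granules are filled in a fixed order. Azurophil (primary) granules come first, at the promyelocyte stage, and hold myeloperoxidase and the serine proteases neutrophil elastase, proteinase 3 and cathepsin G. Specific (secondary) granules with lactoferrin and the cathelicidin follow in myelocytes, then gelatinase (tertiary) granules, while division stops and the receptors of the circulating cell appear. A transcript of a granule protein is made for a short time, when its granule is filled, so it marks the stage of the cell.

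The cells set beside the members were the other filtered cells with at least 2 UMIs of the division genes Mki67 and Top2a together and at least 10 of the secondary granule gene Ngp. They are called cycling Ngp cells here and numbered 587 in YO1 and 65 in YO2. The 2544 cells of YO1 and 467 of YO2 with at least 10 Ngp UMIs and none of Mki67 or Top2a are called post-mitotic Ngp cells. Since every member came from 1 library, no difference below has a replicate check, and none carries a p-value. Levels are UMIs per 1000000 of the summed UMIs of a population (CPM). Intervals are 95% intervals, exact Poisson for sums and Clopper-Pearson for shares, and cover counting error only. A gene was counted as higher or lower where the ratio was at least 2-fold and its mean over both sums at least 20 CPM. A gene under 20 CPM in 1 of the 2 sums passed this filter only through the other. Where it was low enough there, its being higher or lower followed from the filter.

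The members were 0.728% of the filtered cells of YO1 (interval 0.614% to 0.858%). In YO2 the count of 0 of 17215 allows a share of up to 0.0174% (3 counts of the total), and the highest sum of the 3 genes in any filtered YO2 cell was 3 UMIs. Set against cycling Ngp cells alone, members made up 142 of 729 members and cycling Ngp cells in YO1 (19.5%, interval 16.7% to 22.5%). In YO2 they were 0 of 65, which allows up to 4.62% by the same limit. Cycling Ngp cells were themselves 3.01% of filtered cells in YO1 and 0.378% in YO2. Pool, cartridge and the cells loaded cannot be told apart here. Of the barcode numbers, 406 occur in both pools.

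Members were deep cells. They had a median of 9375 UMIs, against 5937 in cycling Ngp cells of YO1, 6922 in those of YO2 and 2809.5 in post-mitotic Ngp cells of YO1. Of the members, 81.0% lay above the 95th percentile of UMIs in their pool, and 6 had under 1000 UMIs. Mitochondrial transcripts were a median 6.08% of UMIs in members and 2.70% in cycling Ngp cells of YO1. No doublet caller was run, and the part of depth or of barcodes with 2 cells in the values below was not tested. Whole pools held 39713846 UMIs (YO1) and 41839786 UMIs (YO2) over all barcodes.

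The 3 genes of the rule are given as a description. Members held between 10 and 1002 of their UMIs, with a median of 53 and quartiles at 19.25 and 304.75. They were thus spread over 2 orders of magnitude, with 54 members at 100 or more and 52 under 30. At the threshold, 17 YO1 cells had 10 to 12 UMIs and 17 had 7 to 9, so the rule cut a continuous distribution. Elane (neutrophil elastase) was at 7121 CPM in members, against 38.7 CPM in cycling and 3.22 CPM in post-mitotic Ngp cells of YO1. Mpo (myeloperoxidase) was at 6440 CPM in members, against 8.39 CPM and 2.32 CPM in those populations. Prtn3 (proteinase 3) was at 4168 CPM in members, against 44.7 CPM and 2.32 CPM.

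Ctsg and Ms4a3, the markers that the rule did not use, followed the 3 genes. Ctsg, which encodes cathepsin G, was at 1210 CPM in members (interval 1151 to 1270), against 3.79 CPM in cycling Ngp cells of YO1 (2.07 to 6.36), a ratio of 319 (190 to 585). In the 65 cycling Ngp cells of YO2 it had no UMI. Ms4a3, a membrane protein that marks granulocyte and monocyte progenitors in mice, was at 728 CPM in members (683 to 775), against 118 CPM in cycling Ngp cells (107 to 130). It was the broadest of the 5 markers, being present in 244 of the 587 cycling Ngp cells, against 14 of 587 for Ctsg. Among the 142 members, Prtn3 was found in 136 cells, Elane in 131, Mpo in 121, Ms4a3 in 121 and Ctsg in 97.

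With each cell thinned to 1000 UMIs, 38.4% of members kept a UMI of Ctsg (68.3% unthinned), against 0.320% of cycling Ngp cells of YO1 (2.39% unthinned). For Ms4a3 the thinned share was 43.9% in members (85.2% unthinned), against 10.2% in cycling Ngp cells (41.6% unthinned). The thinning left out 6 members and 11 cycling Ngp cells. In 394 YO1 cells with at least 3 UMIs of B cell genes, which should lack both, the unthinned shares were 0% for Ctsg and 0.508% for Ms4a3, at a median depth of 1495.5 UMIs against 9375 in members.

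**Figure D1:**
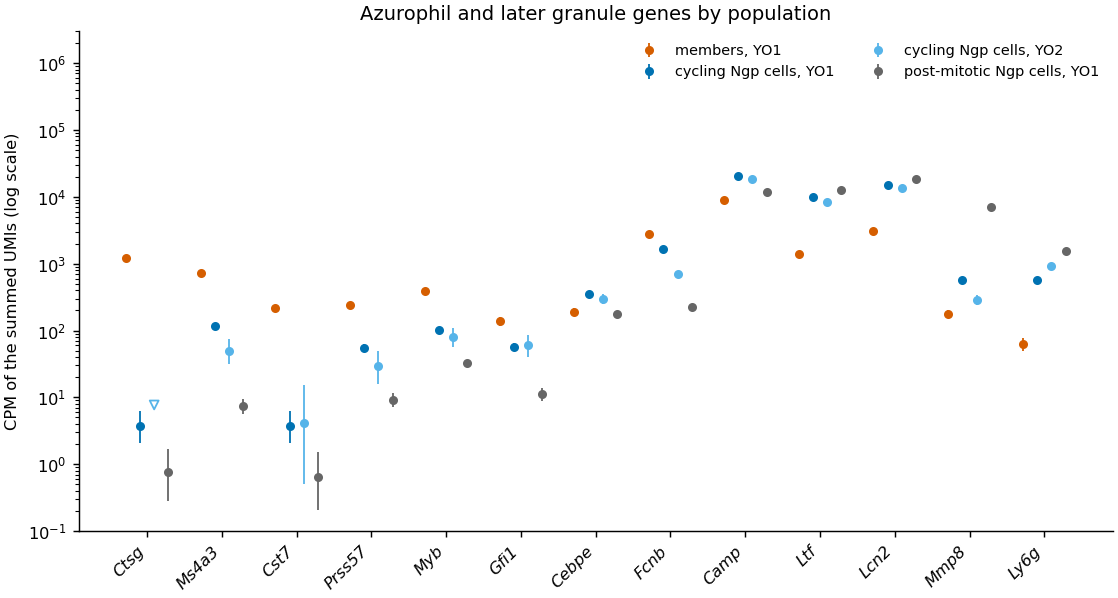
CPM (log scale) of 13 genes in members (YO1), cycling Ngp cells of YO1 and YO2 and post-mitotic Ngp cells of YO1; points are values of summed UMIs, bars their exact Poisson 95% intervals, and open triangles the upper limit where no UMI was found. Ctsg stood at 1210 CPM in members against 3.79 CPM in cycling Ngp cells of YO1, while Ltf stood at 1412 CPM against 10007 CPM.

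The genes of these proteins lie at several places in the mouse genome (GRCm38, GENCODE annotation, gene bounds). Prtn3 (chr10:79874476-79883174) and Elane (chr10:79886247-79888215) are neighbours on the plus strand of chromosome 10, Mpo is at chr11:87793581-87804413 on the plus strand, Ctsg at chr14:56099881-56102574 on the minus strand and Ms4a3 at chr19:11629496-11640851 on the minus strand. The promoters of all 5 genes were searched, and those of Elane, Prtn3, Mpo and Ctsg are printed. Each printed stretch is the RefSeq promoter (GRCm38.p6), 250 bases before the annotated start and 50 from it, read 5′ to 3′ on the strand of the gene. That start is the one of RefSeq, which for Prtn3, Mpo and Elane lies inside the GENCODE bounds above. Distances below count from the RefSeq start. Capitals mark matches on either strand to any of 4 motifs. The motif searched for C/EBP factors was TTGCNNAA. The one for PU.1 was GAGGAA. The one for Myb was CNGTTA, and the TATA box was searched as TATAAA. The Elane stretch is chr10:79886062-79886361, that of Prtn3 chr10:79879417-79879716, that of Mpo chr11:87793534-87793833 and that of Ctsg chr14:56102525-56102824.
Elane: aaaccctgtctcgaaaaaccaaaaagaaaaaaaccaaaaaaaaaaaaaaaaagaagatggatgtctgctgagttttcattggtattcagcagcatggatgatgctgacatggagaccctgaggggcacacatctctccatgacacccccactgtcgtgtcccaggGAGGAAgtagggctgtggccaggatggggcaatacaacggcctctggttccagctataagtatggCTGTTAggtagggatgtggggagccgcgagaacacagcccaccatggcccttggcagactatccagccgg
Prtn3: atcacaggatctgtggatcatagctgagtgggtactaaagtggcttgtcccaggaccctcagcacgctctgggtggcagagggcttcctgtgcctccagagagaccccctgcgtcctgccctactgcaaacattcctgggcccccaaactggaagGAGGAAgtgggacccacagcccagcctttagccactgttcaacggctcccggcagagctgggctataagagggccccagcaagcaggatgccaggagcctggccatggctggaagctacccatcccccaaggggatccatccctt
Mpo: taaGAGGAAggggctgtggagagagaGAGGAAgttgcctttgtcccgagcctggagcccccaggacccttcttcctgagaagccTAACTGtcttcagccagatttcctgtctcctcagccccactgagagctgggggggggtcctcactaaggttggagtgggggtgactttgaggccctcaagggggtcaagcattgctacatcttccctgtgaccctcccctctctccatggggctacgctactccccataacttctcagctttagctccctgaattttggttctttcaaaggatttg
Ctsg: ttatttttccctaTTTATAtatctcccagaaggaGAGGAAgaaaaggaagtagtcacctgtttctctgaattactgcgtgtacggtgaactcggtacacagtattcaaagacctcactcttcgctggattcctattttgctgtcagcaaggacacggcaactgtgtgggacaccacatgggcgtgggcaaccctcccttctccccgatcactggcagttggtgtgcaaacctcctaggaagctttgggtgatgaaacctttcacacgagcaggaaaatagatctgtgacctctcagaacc

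The PU.1 letters occurred in the promoters of all 5 markers, while 28.3% of 27025 RefSeq promoters of that length hold them. In Elane they lay 85 bases before the start and in Prtn3 95 bases before it, and in Mpo they occurred at 247 and 224 bases before it. The Myb letters were in Elane and Mpo (23.2% of promoters). The C/EBP letters were in Ms4a3 alone of the 5 (10.8% of promoters), directly after its PU.1 letters and without overlap. In Ms4a3 both lay after the start, the PU.1 letters at 35 bases and the C/EBP letters at 41. The exact letters TATAAA were in Ctsg alone (14.2% of promoters), on the opposite strand and 237 bases before the start. Variants of the TATA box were not searched. These are matches of letters in a window, and no binding was measured.

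The members were not 1 kind of cell. In 17 of them the marker lists of eosinophils (Epx, Prg2, Prg3, Ear6, Ccr3, Siglecf, Il5ra) or of basophils and mast cells (Mcpt8, Prss34, Cpa3, Ms4a2, Fcer1a, Cd200r3) reached 3 UMIs. In 26 others the monocyte list (Csf1r, Ccr2, F13a1, Fn1, Cx3cr1, Ace, Treml4) did. The other 99 held neither, and 72 of them had at least 10 UMIs of Ngp and 27 fewer. These 4 sets, and the splits within them given below, were formed after the values were seen. Of the 43 cells in the first pair of sets, 16 had 3 to 10 UMIs of their largest list, in cells of 5375 to 23442 UMIs, and 27 had more. Ngp reached 10 UMIs in 7 of the 43. Since some members thus carried markers of another granulocyte or of monocytes, the cells are called azurophil-granule cells or members here.

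Markers of other cell types were also counted. The dendritic cell list reached 3 UMIs in 9 members, and its summed level was 478 CPM in members and 507 CPM in cycling Ngp cells of YO1. The endothelial list reached 3 UMIs in 6 members, at 90.9 CPM in members and 41.97 CPM in cycling Ngp cells. No member reached 3 UMIs of the T and NK cell list, where Cd3e, Cd3g, Cd8a, Klrb1c, Ncr1 and Trbc2 were at 0, and 2 reached 3 UMIs of the B cell list. The macrophage list reached 3 UMIs in 35 members, with 211 of its 232 UMIs from Vcam1, an adhesion molecule found in 61 members. The summed level of that list was 174 CPM in members and 122 CPM in cycling Ngp cells of YO1. Counting any list, 80 of 142 members reached 3 UMIs, and the part of these transcripts in the results was not tested beyond the values without the 43 members given below.

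**Figure D2:**
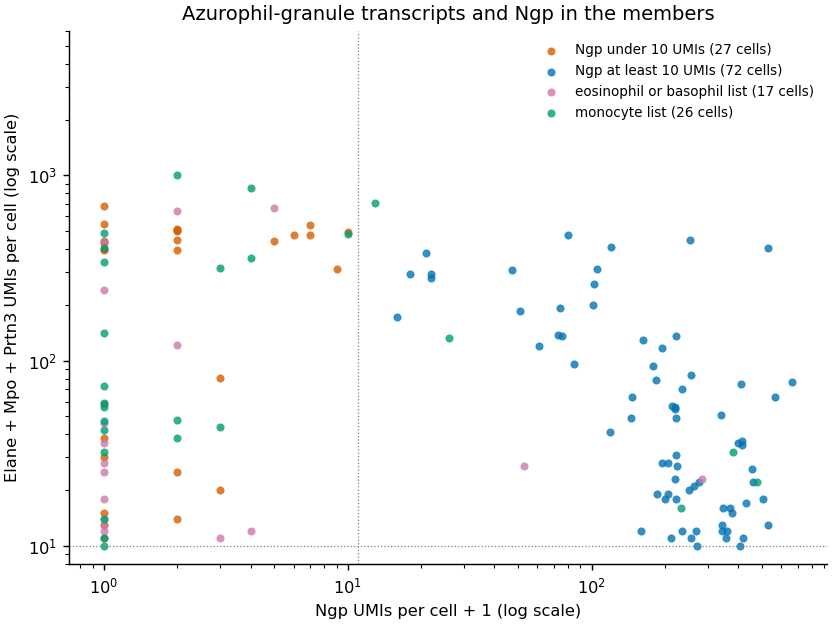
UMIs of Elane, Mpo and Prtn3 together against UMIs of Ngp plus 1, both on log scales, with 1 point per member (142) coloured by set; dotted lines mark 10 UMIs. Among members with 10 or more Ngp UMIs, the 21 with at least 100 UMIs of the 3 genes had a median of 75 Ngp UMIs, and the 31 with 10 to 29 had a median of 270.

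The 27 members with little Ngp held the most azurophil transcripts: the 3 genes were a median 4.11% of their UMIs, against 0.556% in the 72 members with Ngp. Of the 27, 17 had 300 or more UMIs of the 3 genes and 10 had under 100, and none lay between. Of the 10, 8 were shallow, with 376 to 1890 UMIs in all, and the 3 genes were 2.97% to 6.70% of their UMIs, against 2.69% to 6.81% in the 17. The other 2 of the 10 were low by share, at 0.351% and 0.414%. Ctsg was at 2755 CPM in the 27 members (interval 2534 to 2989), against 301 CPM in the 72 (260 to 346). Myb, a transcription factor of immature blood cells, was at 719 CPM (608 to 843) in the 27, against 201 CPM (168 to 239) in the 72. Cebpa, the C/EBP factor that starts granulocyte commitment, was at 149 CPM (101 to 211) in the 27, against 68.2 CPM (49.5 to 91.5) in the 72. Cebpe, the C/EBP factor of secondary granule genes, ran the other way, at 139 CPM (93.0 to 200) in the 27, against 299 CPM (258 to 344) in the 72. Mitochondrial transcripts were a median 7.53% of UMIs in the 27 and 5.50% in the 72, and their part in these differences was not tested. Between these 2 sets, 912 of 5924 measured genes (15.4%) were at least 2-fold higher and 562 (9.49%) at least 2-fold lower in the 27.

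Secondary granule genes were also given by the split, which was made on Ngp, a gene of that list, so their difference is a description. All 12 measured genes of that list other than Ngp were at least 2-fold lower in the 27 members. Ltf (lactoferrin) was at 23.95 CPM in the 27, against 2632 CPM in the 72, and Lcn2 (lipocalin 2) at 67.1 CPM against 5714 CPM. Fcnb (ficolin B) was the exception in level, at 1758 CPM in the 27 and 4556 CPM in the 72, both near or above the 1680 CPM of cycling Ngp cells. Of the highest genes in the 27, Ptprb, Sparc and Col4a1, which endothelial cells also express, rested on 17, 20 and 9 UMIs, and 2 of the 27 reached 3 UMIs of the endothelial list. Irf8, a factor of monocyte and dendritic cell fate, rested on 11 UMIs in 2 cells of the 27.

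Within the 72 members with Ngp, azurophil transcripts and those of Ngp, Ltf and Lcn2 ran in opposite directions across bands of the 3 genes. The 21 cells with 100 or more UMIs of the 3 genes had a median of 75 Ngp UMIs. The 20 cells with 30 to 99 had a median of 220.5, and the 31 cells with 10 to 29 a median of 270. The 461 cycling Ngp cells of YO1 without any UMI of the 3 genes had a median of 299. Ctsg, which the bands did not use, was at 744 CPM (interval 637 to 864) in the highest band, 78.5 CPM (42.9 to 132) in the middle band, 29.8 CPM (11.99 to 61.4) in the lowest band and 2.19 CPM (0.803 to 4.76) in the cells with none. Ltf was at 942 CPM, 1778 CPM, 4953 CPM and 10677 CPM in the same order, and Lcn2 at 2340 CPM, 4908 CPM, 9667 CPM and 15799 CPM. The secondary granule gene Mmp8 did not follow, at 396 CPM, 44.9 CPM, 426 CPM and 653 CPM. Camp and Fcnb, given below, did not rise at each step either. The intervals of these neighbouring bands did not overlap for Ltf or Lcn2, and for Ctsg they overlapped between the middle and the lowest band. They leave out the spread between cells, so their overlap is no test of the bands. Ltf had a UMI in 10 of the 21 cells of the highest band. The 100 UMIs of Mmp8 in the lowest band lay in 6 of its 31 cells. In the 13 cycling Ngp cells with 7 to 9 UMIs of the 3 genes, just outside the rule, Ctsg was at 16.99 CPM from 2 UMIs (2.06 to 61.4), which overlapped both the lowest band and the cells with none, and Ltf was at 6636 CPM. Median depth also differed over the bands, at 10498, 8866.5, 7450 and 5701 UMIs, as did the median mitochondrial share, at 6.25%, 5.77%, 4.93% and 2.48%. Their part was not tested.

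The bands were cut on the sum of Elane, Mpo and Prtn3, so the levels of these genes over the bands are a description. Mpo was at 7588 CPM, 920 CPM and 128 CPM in the 3 bands of members, and Elane at 10669 CPM, 3578 CPM and 1167 CPM. Prtn3 was at 4973 CPM, 2232 CPM and 933 CPM. Ms4a3 was at 878 CPM, 600 CPM and 370 CPM, and stood at 97.3 CPM in the cells with none. Likewise as a description of the sets, Mpo gave 39.97% of their UMIs in the 27 members with little Ngp, and 27.5% in the 72 with Ngp, where Elane gave 47.6%. Camp, the cathelicidin gene, was at 10114 CPM in the highest band, and at 20881 CPM and 20918 CPM in the other 2, against 20371 CPM in the cells with none. Fcnb was highest in the middle band at 5586 CPM (5245 to 5944), against 4250 CPM in the highest, 4075 CPM in the lowest and 1354 CPM in the cells with none.

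The 17 members of the eosinophil or basophil lists were chosen by granule genes of those lineages, whose levels are therefore a description. Prg2 (eosinophil major basic protein) had 6376 UMIs there, or 40680 CPM, in 7 of the 17 cells, and Epx (eosinophil peroxidase) was at 3796 CPM, also in 7 cells. Prss34 and Mcpt8, mast cell type proteases of basophils, were at 6393 CPM in 5 cells and 4300 CPM in 7 cells. Gata2, a factor of basophil and mast cell lineages, was at 319 CPM (237 to 421) in these 17, against 1.55 CPM in the 72 members with Ngp. All 17 held Mpo, while 9 of 17 held Elane. Most UMIs of the 3 genes, 1742, were in 3 cells that had just 3 to 6 UMIs of a list, and the other 14 together held 628. Mpo gave 39.8% of these UMIs in the 3 cells and 79.0% in the 14. Both lists reached 3 UMIs in 7 cells, and Ngp reached 10 UMIs in 2 of the 17.

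The 26 members of the monocyte list held Irf8, which is not on that list, at 472 CPM (400 to 554), against 1.55 CPM in the 72 members with Ngp. F13a1 (coagulation factor XIII A) and Ccr2, a chemokine receptor of monocytes, belong to the list that chose these cells, and were at 619 CPM and 347 CPM. Azurophil transcripts were concentrated in 9 of the 26, with 300 or more UMIs of the 3 genes and 3 to 31 of the monocyte list. Ctsg was at 3122 CPM in these 9 and 486 CPM in the other 17, against 900 CPM in the 99 members of neither list. Elane was at 12362 CPM in the 9 and 1913 CPM in the 17, against 7590 CPM in the 99. The split at 300 UMIs used Elane and not Ctsg, so the Elane levels are a description. The 99 were not split in this way. The 17 members with little Ngp and 300 or more UMIs of the 3 genes had Ctsg at 2819 CPM and Elane at 15503 CPM. In the 26 of the monocyte list, Cebpe was at 43.8 CPM (23.9 to 73.4), the lowest of the 4 sets. Of the 26, 25 had at least 2 UMIs of Mki67 and Top2a, as did 69 of the 72, 19 of the 27 and 8 of the 17.

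**Figure D3:**
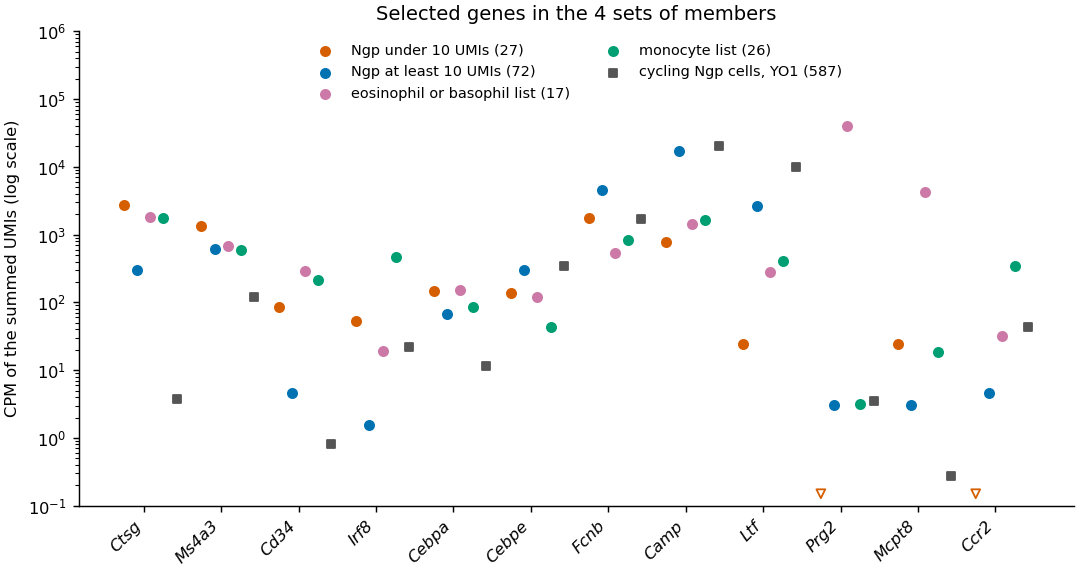
CPM (log scale) of 12 genes in the 4 sets of members and in cycling Ngp cells of YO1; points are values of summed UMIs and open triangles near the base mark genes with no UMI. Prg2 and Mcpt8 were high in the 17 members of the eosinophil or basophil lists, Irf8 and Ccr2 in the 26 of the monocyte list, and Ltf in the 72 with Ngp among the members.

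Against cycling Ngp cells of YO1, 860 of 5806 measured genes (14.8%) were at least 2-fold higher in members and 246 (4.24%) at least 2-fold lower. The median log2 ratio of all measured genes was 0.17. Scaling by TMM, which discounts the few genes that take many UMIs, lowers every log2 ratio of this comparison by 0.35. It moves the median of all genes to -0.18 and the counts to 522 higher and 629 lower. Ratios below are thus to be read against these medians, and counts in lists against the counts of all genes. Without the 43 members of the eosinophil, basophil or monocyte lists, 592 of 5623 genes (10.5%) were higher and 221 (3.93%) lower, with a median of 0.12. Of the 860 higher genes, 599 were also at least 2-fold higher in the 99 members (69.7%), as were 156 of the 246 lower genes at least 2-fold lower (63.4%). The 99 are a description without members of these 3 lists, and 37 of them still reached 3 UMIs of another list. The macrophage list was at 236 CPM in the 99 and the endothelial list at 114 CPM, against 174 CPM and 90.9 CPM in all members. The low values of Ccr2 and its like in the 99 follow from how they were chosen. Since the comparison cells needed 10 Ngp UMIs and members did not, secondary granule genes were tied to the choice of cells.

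The 10 highest ratios were mostly those of the 17 eosinophil or basophil list cells: Mcpt8, Prg2, Prss34, Epx, Ear6, Prg3, Cpa3 and Ear1, with Ctsg and Cd34 as the others. Mcpt8 had 687 UMIs in members and 1 in cycling Ngp cells of YO1 (ratio 1906, interval 341 to 75405), and in the 99 members it was at 8.19 CPM. Cd34, a surface protein of stem and progenitor cells, was at 101 CPM in 28 members, against 0.812 CPM from 3 UMIs (ratio 125, interval 41.8 to 613), and at 24.6 CPM in 6 of the 99. In the 99 the highest ratios after Ctsg were those of Dio2 (a deiodinase), at 41.0 CPM, Cst7 (cystatin F), at 222 CPM in 53 of them, and Slc16a1 (a lactate transporter), at 42.1 CPM. Cst7 was at 3.79 CPM in cycling Ngp cells of YO1, a log2 ratio of 5.87 in the 99. Gstm1 (a glutathione transferase, 898 CPM), Srm (spermidine synthase, 39.8 CPM), Pebp1, Nkg7, Tma16 and Vat1 completed the 10, with log2 ratios between 4.45 and 3.87.

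The 10 lowest ratios were those of St3gal5, Igha, AA467197, Plbd1, Ly6g, Cldn1, Crispld2, Fpr2, Fmnl2 and Inhba, with log2 ratios between -3.97 and -2.95. St3gal5, a sialyltransferase of gangliosides, was at 24.04 CPM in members (interval 16.4 to 33.9), against 376 CPM in cycling Ngp cells of YO1 (356 to 396). Fpr2, a formyl peptide receptor, was at 57.1 CPM in members, against 470 CPM. Igha is an immunoglobulin gene of plasma cells, at 11.3 CPM in members, against 165 CPM, and it is on the plasma cell list itself. Without cells of any other lineage list its log2 ratio was 0.54. All 10 were also lower in the 99 members, with log2 ratios between -3.63 and -2.36.

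**Figure D4:**
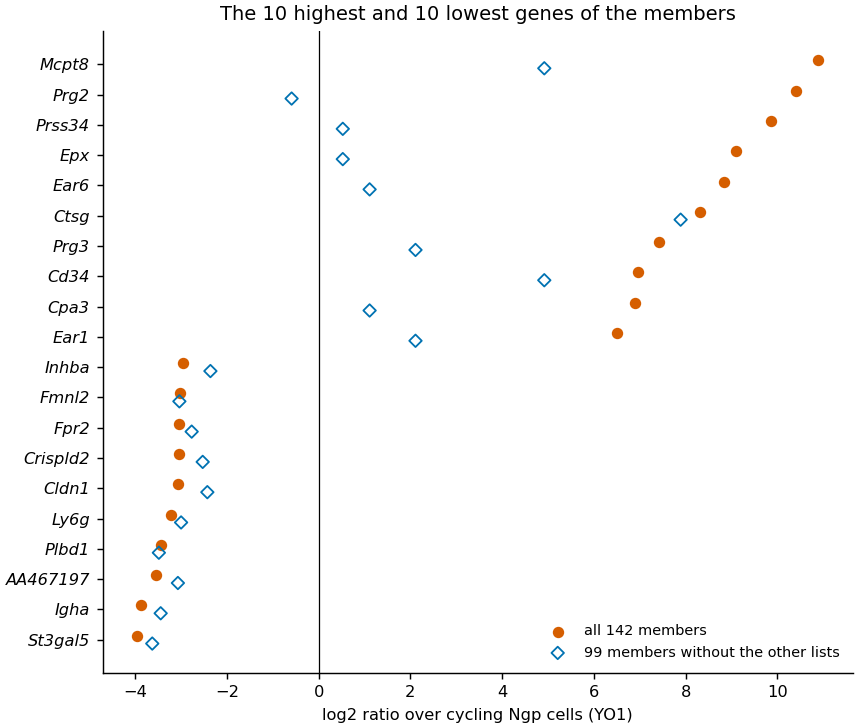
Log2 ratio over cycling Ngp cells of YO1 for the 10 highest and 10 lowest genes of the members, for all 142 members (filled circles) and for the 99 without the eosinophil, basophil or monocyte lists (open diamonds). Prg2 stood at 10.41 with all members and at -0.59 in the 99, while Ctsg stood at 8.32 and 7.89.

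Ly6g, the gene of the antigen used for the sort, was low in these sorted cells. It was at 62.4 CPM in members (interval 49.7 to 77.3), against 580 CPM in cycling and 1534 CPM in post-mitotic Ngp cells of YO1. It had a UMI in 25 of 142 members (17.6%; 4.41% thinned), against 451 of 587 cycling Ngp cells (76.8%; 38.0% thinned). In B list cells of YO1 the share was 4.31% unthinned and 2.21% thinned, at a median depth of 1495.5 UMIs against 9375 in members. Among the sets it was at 96.0 CPM in the 72 members with Ngp, 59.4 CPM in the 26 of the monocyte list and 12.8 CPM in the 17 of the eosinophil or basophil lists. The 27 members with little Ngp had no UMI of it. Itgam, which encodes CD11b, was at 397 CPM in members, against 806 CPM in cycling Ngp cells, and had a UMI in 108 members. A transcript level is not the amount of the protein that was stained.

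Genes of immature cells were higher in members. Of 9 measured genes of the stem and progenitor list (16 on the list), 7 were at least 2-fold higher and none lower. Their median log2 ratio was 1.97, against 0.17 for all genes, of which 14.8% were higher. Cd34, Myc and Gata2 were at 0.812 CPM, 1.35 CPM and 2.71 CPM in cycling Ngp cells of YO1. These genes passed the filter only through members, and their being higher followed from it. Myb was at 396 CPM in members (interval 363 to 431), against 101 CPM in cycling Ngp cells of YO1 (90.7 to 111). Cdk6, a kinase of the cell cycle in early blood cells, was at 389 CPM, against 63.4 CPM, and Kit, the stem cell factor receptor, at 63.9 CPM, against 23.3 CPM. Gata2 had a log2 ratio of 3.85 with all members and -1.21 in the 99, where it had 1 cell with a UMI. In the 99, 4 of 6 measured genes of the list were higher, with a median of 1.42.

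Of 17 measured transcription factors of granulopoiesis, 3 were at least 2-fold higher and none lower, with a median log2 ratio of -0.32, while 14.8% of all measured genes were higher. Under TMM scaling 2 were higher and 6 lower. Cebpa was at 94.7 CPM in members (78.9 to 113), against 11.4 CPM in cycling Ngp cells of YO1 (8.196 to 15.4). Gfi1, a repressor needed for the neutrophil fate, was at 137 CPM (118 to 159), against 56.9 CPM (49.4 to 65.1). Cebpa and Gfi1 were also higher in the 99 members, with log2 ratios of 2.95 and 1.57. Irf8 had a ratio of 2.53 with all members and -0.62 in the 99, where 3 cells held it. Cebpe was at 192 CPM in members, against 348 CPM, and Spi1, the gene of PU.1, at 500 CPM, against 656 CPM.

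In the azurophil list, 6 of the 7 genes that the rule did not use were at least 2-fold higher and none lower, with a median log2 ratio of 2.62. Besides Ctsg and Ms4a3, these were Cst7, Srgn (serglycin, the proteoglycan that packs granule proteins), Prss57 (an azurophil serine protease) and Ctsc. Ctsg and Cst7 were each at 3.79 CPM in cycling Ngp cells of YO1. Both passed the filter only through members, and their being higher followed from it. Srgn was at 1821 CPM in members, against 229 CPM in cycling Ngp cells of YO1 and 795 CPM in those of YO2, so its ratio depended on the pool set beside it. Ctsc, which activates the granule proteases by cleaving them, was at 51.8 CPM in members, against 18.95 CPM, but at 10.5 CPM in the 99. At 18.95 CPM in cycling Ngp cells of YO1, Ctsc also passed the filter only through members, so it could not have been lower. Serpinb1a, an inhibitor of these proteases, was at 1204 CPM in members, against 1133 CPM. Of 18 measured lysosomal hydrolases and membrane proteins, 6 were higher and none lower, with a median of 0.69, while 14.8% of all measured genes were higher. Under TMM scaling 1 of the 18 was higher, against 522 of all 5806 measured genes.

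The monocyte lineage list differed between all members and the 99. With all members 7 of 12 measured genes were at least 2-fold higher, while 14.8% of all measured genes were. Among the 7 were F13a1 at 156 CPM against 10.3 CPM and Ms4a6c at 178 CPM against 24.9 CPM. F13a1 passed the filter only through members, and its being higher followed from it. In the 99 fewer genes of the list passed the filter. None of the 5 measured was higher and 3 were lower, while 3.93% of all genes measured there were lower. Their median log2 ratio was -1.31, against 1.09 with all members. Several genes of the list also chose the cells that were left out.

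Genes of later granules were lower in members. Of 12 measured secondary granule genes, 9 were at least 2-fold lower and none higher, with a median log2 ratio of -1.60. Ltf was at 1412 CPM in members (1349 to 1477), against 10007 CPM in cycling Ngp cells of YO1 (9906 to 10110), and Cd177 at 81.1 CPM, against 380 CPM. Fcnb alone of the list was higher in level, at 2747 CPM in members (2659 to 2837), against 1680 CPM (1638 to 1722), and its log2 ratio was 0.71 with all members and 1.20 in the 99. In post-mitotic Ngp cells of YO1 it was at 227 CPM. Of 13 measured tertiary granule genes, 9 were lower and none higher, with a median of -1.50, led by Fpr2, Mmp25 and Mmp9 (gelatinase B, 131 CPM against 571 CPM). Of 19 measured receptors of mature neutrophils, 5 were lower and none higher, with Pirb, C5ar1 and Cxcr2 among them, while 4.24% of all measured genes were lower.

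**Figure D5:**
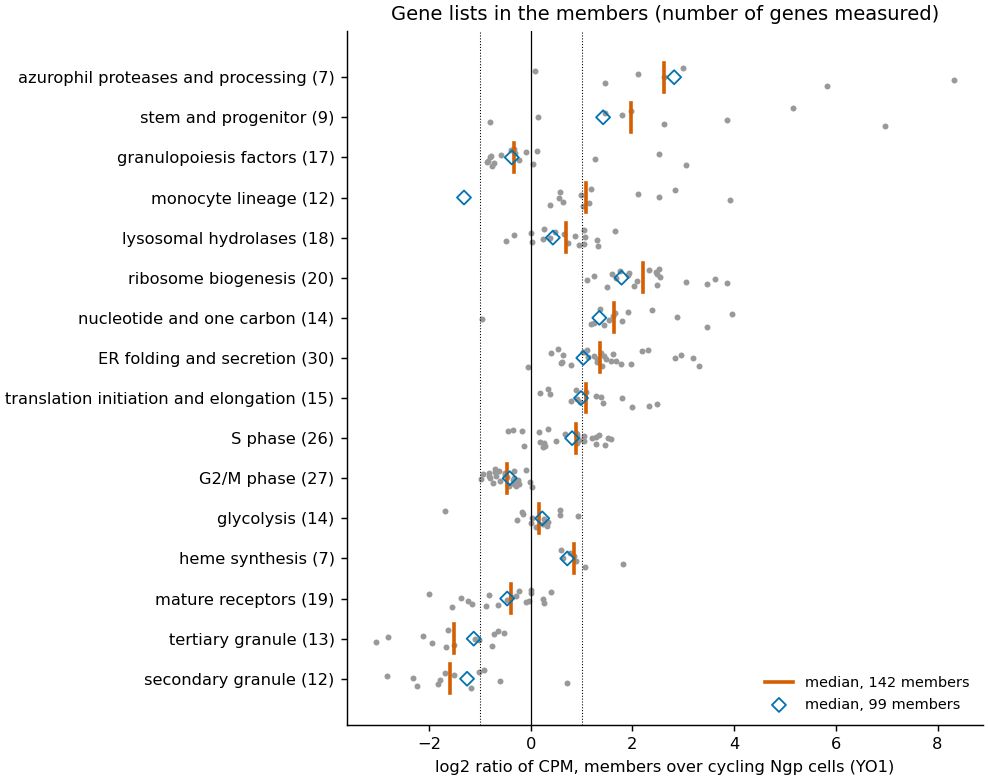
Log2 ratio of members over cycling Ngp cells of YO1 for the measured genes of 16 lists (grey points, 1 per gene; number measured in brackets), with the median over all 142 members (bar) and over the 99 members (diamond); dotted lines mark 2-fold. Medians ranged from 2.62 in the azurophil list to -1.60 in the secondary granule list.

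Genes for making ribosomes and proteins were higher in members. All 20 measured genes of ribosome biogenesis (27 on the list) were at least 2-fold higher, while 14.8% of all measured genes were. Their median log2 ratio was 2.20. In the 99 members 17 of 18 were so, against 10.5% of all genes measured there, with a median of 1.79. Fbl, the methyltransferase fibrillarin of the nucleolus, was at 147 CPM in members, against 13.3 CPM in cycling Ngp cells of YO1. A gene this low in cycling Ngp cells passed the filter only through members, so its being higher followed from it. How many genes of the list were so low was not counted. Of 77 measured cytosolic ribosomal protein genes, 76 were higher, and their summed level was 103802 CPM in members, against 30372 CPM in cycling Ngp cells. Ribosomal protein genes have many near-identical pseudogenes, so their single values are uncertain. Of 15 translation factors, 8 were higher, led by Eef1g at 352 CPM against 62.8 CPM. None of these lists had a gene at least 2-fold lower, while 4.24% of all measured genes were. Under TMM scaling 18 of the 20, 71 of the 77 and 6 of the 15 were higher, against 522 of all 5806.

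Folding and export followed. Of 30 genes of the endoplasmic reticulum, 23 were at least 2-fold higher and none lower, with a median log2 ratio of 1.36, while 17 of 30 were so in the 99 and 15 under TMM scaling. Calr (calreticulin) was at 1507 CPM in members (1442 to 1575), against 153 CPM in cycling Ngp cells of YO1 (140 to 166). Across the 72 members with Ngp it was at 977 CPM, 258 CPM and 145 CPM from the highest to the lowest band of the 3 azurophil genes, and at 145 CPM in cells with none. Sdf2l1, a cofactor of ER chaperones, was at 188 CPM in members, against 24.4 CPM. Of 14 measured genes of nucleotide and one-carbon synthesis, 13 were higher, with a median of 1.64, and Phgdh, the first enzyme of serine synthesis, was at 93.2 CPM, against 5.96 CPM. At that level in cycling Ngp cells, Phgdh passed the filter only through members, and its being higher followed from it. Of 7 measured genes of heme synthesis, which supplies myeloperoxidase with its cofactor, 2 were higher, while 14.8% of all measured genes were. These 2 were Cpox, at 50.3 CPM against 14.4 CPM, and Alas1, the first enzyme of the pathway, at 230 CPM against 109 CPM.

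Most members, like the cycling Ngp cells, held transcripts of division genes. Of 142 members, 121 had at least 2 UMIs of Mki67 and Top2a (85.2%, interval 78.3% to 90.6%), which the comparison cells needed by rule. The levels of phase genes were thus tied to the choice of cells. Of 26 measured S phase genes 9 were at least 2-fold higher and none lower, with a median log2 ratio of 0.90, while 14.8% of all measured genes were higher. Mcm2, a subunit of the replicative helicase, was at 130 CPM in members (111 to 151), against 45.5 CPM in cycling Ngp cells of YO1 (38.9 to 52.9) and 2.09 CPM in those of YO2. None of the 27 G2/M genes passed 2-fold in either direction, and their median was -0.46. Under TMM scaling 9 of the 27 G2/M genes were at least 2-fold lower and 3 of the 26 S phase genes higher. Of all 5806 measured genes 629 were then lower and 522 higher. In the glycolysis list 1 of 14 genes was lower (Slc2a3, a glucose transporter, at 57.9 CPM against 186 CPM), and the median was 0.17, or -0.18 under TMM. Of 80 measured genes of the respiratory chain, 8 were higher and none lower, with a median of 0.57, a smaller share than the 14.8% of all measured genes.

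Against post-mitotic Ngp cells of YO1, 2023 of 5608 measured genes (36.1%) were at least 2-fold higher in members and 763 (13.6%) at least 2-fold lower, around a median log2 ratio of 0.47. The secondary granule list had 8 of 12 genes lower and 1 higher, Fcnb, and the tertiary list 12 of 14 lower. Mmp9 was at 131 CPM in members, against 4369 CPM in post-mitotic Ngp cells, and Mmp8 at 178 CPM, against 7112 CPM. Of 19 measured receptors, 14 were lower, among them Cxcr2 at 93.2 CPM against 1040 CPM. Division chose these cells as well, so the phase genes are not compared.

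Beside the cycling Ngp cells of YO2, 1307 of 5706 genes (22.9%) were at least 2-fold higher in members and 479 (8.39%) lower, in which cartridge and pool are part of every ratio. The 65 cells of YO2 differed from the 587 of YO1 in 166 of 5216 genes (3.18%) at least 2-fold higher and 223 (4.28%) lower in YO2. The same members stood in both comparisons and the YO2 cells were chosen by the same rule, so the directions are no check between pools. Beside YO2, 5 of 7 azurophil genes and all 21 measured genes of ribosome biogenesis were higher, and 7 of 12 secondary granule genes lower. Ctsg, without a UMI in these YO2 cells, and Cst7, at 4.18 CPM there, were measured only through members. Their being higher followed from the filter. Secondary granule genes were again tied to the choice of cells. Ms4a3, which the rule did not use, was at 728 CPM in members, against 50.1 CPM in cycling Ngp cells of YO2.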

How the data were processed

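The deposited matrix held whole-number UMI counts of 21995 genes in 38072 barcodes, made by the authors from reads of 2 pools. Per the submitters' processing notes the build was mm10. How reads were aligned and cells called is not given in the sources used here. Tag libraries stayed out. Barcodes with at least 200 UMIs, 100 genes and under 20% mitochondrial UMIs were kept. UMIs were summed per population and scaled to CPM with Python 3.11.15, numpy 2.4.6, scipy 1.17.1 and pandas 2.3.3. log2 ratios and exact intervals were computed from the sums, and the computation was tried on simulated Poisson sums. Those hold no spread between cells, so they do not show how well the intervals cover these data. A planned edgeR test on sums of both pools was not run, because members occurred in 1 pool. edgeR 4.0.16 gave TMM factors for an alternative. The members, lists and tests were chosen with earlier results of these data known. The genes named are the markers, the 10 highest and 10 lowest ratios at 20 CPM or more (gene models, ribosomal, mitochondrial and rule genes skipped) and up to 4 genes per list (more for stem cell, transcription factor and azurophil lists). The sets and bands of members were chosen after the values were seen, as were the genes shown for them. Replicates are the 2 pools, and nothing states separate animals for them.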

Additional observations from a re-analysis of the deposited data

How the results depend on the processing

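No paired analysis was possible because all members came from 1 pool; for the same reason the edgeR and DESeq2 tests, the fits with 2 populations, and the sums that leave out a pool were not run. TMM scaling lowers every ratio alike: the median log2 ratio of all genes was -0.18 in place of 0.17, and the counts over cycling Ngp cells were 522 higher and 629 lower genes in place of 860 and 246, so more genes then lay on the lower side. Over post-mitotic Ngp cells they were 1311 higher and 1549 lower in place of 2023 and 763. Without the filter on low values, the counts were 4786 and 649 over cycling and 7976 and 1309 over post-mitotic Ngp cells. With cycling Ngp cells of YO2 in place of YO1 they were 1307 and 479. The member share of YO1 was 0.892% with a threshold of 5 UMIs, 0.543% with 20, 0.456% with at least 0.5% of UMIs, and 0.418% without cells of any other list; no setting found a member in YO2. Thinned to 500 UMIs, 28.9% of members kept a UMI of Ctsg and 26.7% one of Ms4a3. Of 62 named genes and 21 lists, 7 values that were at least 2-fold changed sign under 1 of 11 settings. Another 11, all under 2-fold, changed sign under at least 1, among them the glycolysis median under TMM. Igha was at 0.54 without cells of any other list. Without the 43 members of the eosinophil, basophil and monocyte lists (an alternative chosen after seeing the data), Prg2 was at -0.59, Ccr2 at -3.64, Ctsc at -0.85, Gata2 at -1.21, Irf8 at -0.62 and the monocyte lineage median at -1.31. Leaving out the 6 members under 1000 UMIs moved none of these values. The cause of each shift was not tested, apart from the cells and genes each setting leaves out.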
